A study of Mus musculus with 446 samples.

Results

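The muscle libraries described here came from the control-diet mice at opposite ends of a liver clock score, a contrast of 2 clock genes whose transcripts cycle out of phase in mouse liver. The score was log2(Dbp + 1) minus log2(Arntl + 1), computed from scaled liver TPM, and is high when the clock output Dbp is abundant and the clock activator Arntl is scarce. Control mice 1 to 75 qualified when their liver and muscle libraries each held at least 8000 genes at TPM 1 or more, which 63 of the 74 control mice did. The muscle libraries of the 20 mice with the highest liver scores (high-score mice) were compared with those of the 20 mice with the lowest (low-score mice), 40 of the 446 libraries of the series. The mice were thus chosen by their liver levels of Dbp and Arntl, and liver values are given as a description. The muscle values took no part in the ranking beyond the minimum number of genes.

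All animals were males of the Diversity Outbred stock, in which each mouse has its own genotype. They were caged singly from 6 weeks of age under a daily light-dark cycle. High-score and low-score mice alike stayed on the control diet (10 kcal % fat) for the 14 weeks of the study. For comparison served the mice of the high-fat diet (60 kcal %), of which 60 of 75 qualified, and their 20 highest and 20 lowest liver scores formed the high-fat groups. Total RNA of liver, muscle and abdominal adipose tissue was sequenced from stranded libraries. Which muscle was sampled and at what hour each mouse was killed is not stated in the labels, so the score was not set against time of day, and differences of phase, amplitude and level between genotypes cannot be told apart. Fasting periods for glucose measurements were part of the protocol.

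In mammalian cells the clock is a loop of transcription. CLOCK and BMAL1, the product of Arntl, bind E-boxes and switch on the Per and Cry repressors, which then shut them off, so that Per and Cry transcripts follow the activators within each day. REV-ERB repressors (Nr1d1, Nr1d2) and ROR activators compete for a second element and drive Arntl in antiphase to the E-box genes. Another arm, the D-box, is driven by DBP, TEF and HLF and held down by NFIL3. Skeletal muscle runs its own copy of this loop, which is set by feeding, activity and signals from the central clock.

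Liver and muscle libraries of the same mouse number were first compared with each other. For this, 150 genes were picked as those that agreed best between the tissues of these mice, with clock genes left out. The picking used the same mouse numbers, which favours a match, so the result is no independent check of the labels. On these genes the liver library resembled the muscle library of the same mouse number most in 94% of the mice with both. Among the 40 mice here, 1 did not: the liver of low-score mouse 45 resembled the muscle of another mouse more than its own (correlation with its own, -0.06, against at least 0.51 in the other mice). Skeletal muscle markers summed to between 25024 and 130852 scaled TPM in high-score and low-score libraries together, and no marker of that list had a median under 1. Of 10 hepatocyte markers, 7 had a median under 1 scaled TPM. Their sum still ran from 0.566 to 529 scaled TPM in high-score and from 0.840 to 298 in low-score libraries. The libraries held 10397 to 17910 genes at TPM 1 or more, with 34.2% to 73.9% of TPM on nuclear protein-coding genes. None of 15 library measures differed between the score groups in a two-sided permutation test of the difference in means with 100000 resamples after Benjamini-Hochberg adjustment over the 15 measures, and 1 did at an unadjusted p under 0.05. Read depth cannot be recovered from TPM and is unknown.

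The liver scores ran from 1.05 to 5.49 in high-score mice, with a median of 2.14, and from -3.39 to -2.21 in low-score mice, with a median of -2.97. At the upper limit the last mouse inside had 1.05 and the first outside 0.91, and at the lower limit the last inside had -2.21 and the first outside -1.98. In liver, Dbp averaged 24.6 ± 13.5 scaled TPM in high-score mice and 0.551 ± 0.427 in low-score mice (SD, n = 20 each). Liver Arntl averaged 2.86 ± 1.56 scaled TPM in high-score mice and 10.2 ± 1.44 in low-score mice. These 2 liver genes made the ranking. The liver score was narrower in low-score mice (SD 0.317) than in high-score mice (SD 1.27). Liver Dbp reached at most 1.66 scaled TPM in low-score mice, where the added 1 flattens the score.

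The same score taken in muscle followed the liver score. It ran from -0.99 to 3.67 in high-score mice, with a median of 1.80, and from -2.36 to 1.02 in low-score mice, with a median of -1.38. Its SD was 1.04 in high-score and 0.93 in low-score mice. The muscle score was above 0 in 19 of 20 high-score mice and in 4 of 20 low-score mice, and 18 high-score mice lay above every low-score mouse. The lowest high-score mouse was mouse 68, whose muscle score was -0.99 beside a liver score of 1.94. The highest low-score mouse was mouse 71, with a muscle score of 1.02, 22.8 scaled TPM of Dbp in muscle and Dbp listed at practically 0 in liver. Over all 63 qualifying control mice, Pearson's r between the muscle and the liver score was 0.83 and Spearman's rho 0.84, each with a two-sided permutation p of 1e-05, the smallest that 100000 resamples can give, and 1e-05 after adjustment over the 4 coefficients computed (r and rho in each diet). Without the 2 mice farthest from the median liver score, r was 0.80. A line through the 63 mice had a slope of 0.49 muscle units per liver unit. Over the 60 qualifying high-fat mice r was 0.855 and rho 0.84, with the same p.

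**Figure D1:**
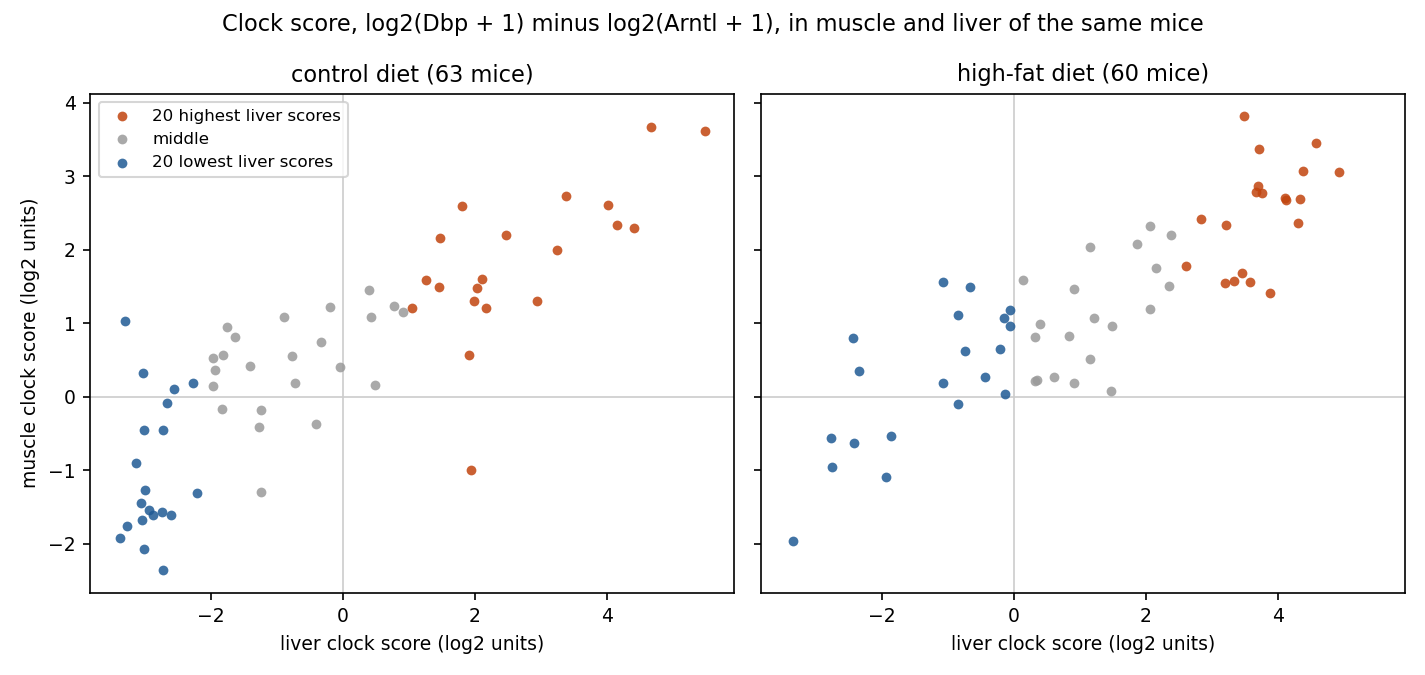
Clock score of the muscle library (vertical axis) against that of the liver library (horizontal axis) of the same mouse, both in log2 units, for 63 control mice on the left and 60 high-fat mice on the right; orange points are the 20 highest liver scores, blue points the 20 lowest, grey points the rest. In control mice 18 of the 20 orange points lie above every blue point on the muscle axis.

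Across all transcripts, the muscle of high-score mice differed from that of low-score mice in few genes, and most of those were parts of the clock. Dbp, Per3, Ciart, Nr1d2 and Coq10b rose (5 genes, 0.0369% of those tested), and Arntl, Cry1, Nfil3 and Ypel2 fell (4 genes, 0.0295%). These 9 genes were 0.0665% of the 13539 genes tested with limma on log2(scaled TPM + 1), at a Benjamini-Hochberg adjusted p under 0.05. At an unadjusted p under 0.05 there were 610. Of the 9 genes, 7 belong to the clock lists of activators, repressors, nuclear receptors and D-box factors, which hold 19 tested genes. The other 12 tested clock genes did not pass. In tissue RNA of this kind, fewer cells of a type and less RNA per cell cannot be told apart. The count ran from 8 to 18 when each mouse was left out in turn, with 18 genes passing without low-score mouse 69 and 14 without high-score mouse 62, the 9 genes among them both times. Without low-score mouse 45, with the ranking filled up again, 11 genes passed, the 9 among them.

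**Figure D2:**
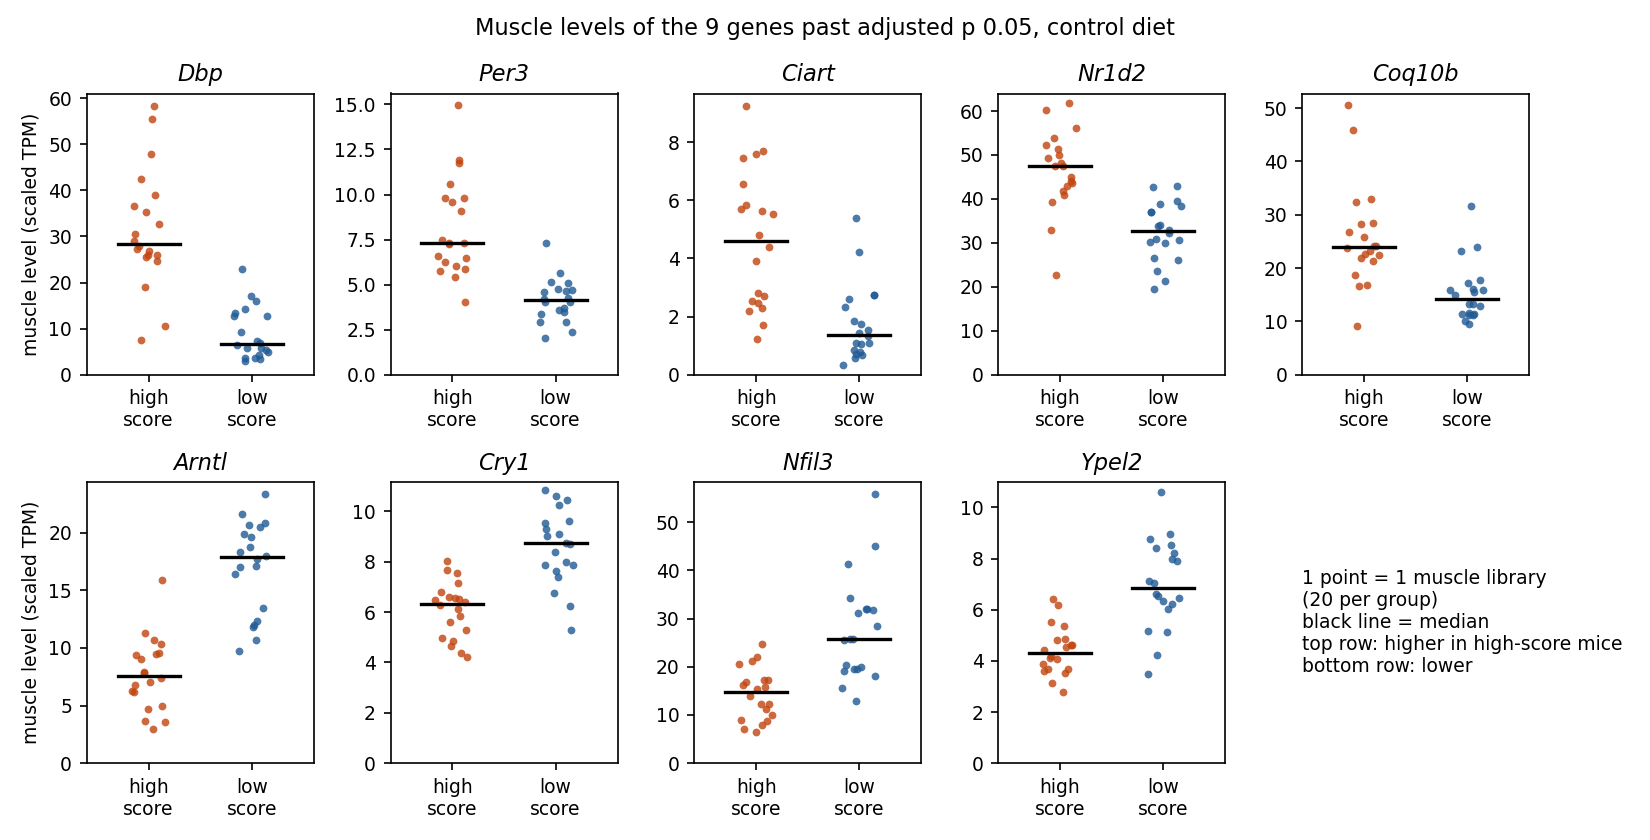
Muscle level in scaled TPM (vertical axes, from 0) of the 9 genes past adjusted p 0.05, with 20 high-score mice (orange, left) and 20 low-score mice (blue, right) of the control diet, 1 point per library and a line at the median. The top row holds the 5 genes that were higher in high-score mice and the bottom row the 4 that were lower; Dbp and Arntl show the least overlap.

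Because the 9 genes moved together, their promoters were read for the 3 clock elements, as RefSeq windows of 300 bases on GRCm38.p6 (250 before and 50 after the transcription start). The E-box was searched as CACGTG, the D-box as TTANGTAA and the REV-ERB/ROR element as ANTAGGTCA, on both strands. Of all 32851 windows, 7.15% held the E-box, 2.32% the D-box and 0.661% the REV-ERB/ROR element. All 9 genes had a window, 10 in total since Arntl had 2. An E-box stood in 3 genes, a D-box in 2, a REV-ERB/ROR element in 2, and none of the 3 in another 3 (Dbp, Nr1d2 and Ypel2). A match says only that the letters are there. The windows of the 6 genes with a match are given 5′ to 3′ on the strand of the gene, with the element in capitals.
Ciart: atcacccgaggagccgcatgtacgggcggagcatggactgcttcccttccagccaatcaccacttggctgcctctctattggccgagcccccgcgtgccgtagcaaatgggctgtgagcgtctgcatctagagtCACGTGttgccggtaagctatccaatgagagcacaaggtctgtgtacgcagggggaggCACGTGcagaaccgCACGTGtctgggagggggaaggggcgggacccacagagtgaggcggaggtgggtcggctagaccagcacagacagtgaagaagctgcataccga
Cry1: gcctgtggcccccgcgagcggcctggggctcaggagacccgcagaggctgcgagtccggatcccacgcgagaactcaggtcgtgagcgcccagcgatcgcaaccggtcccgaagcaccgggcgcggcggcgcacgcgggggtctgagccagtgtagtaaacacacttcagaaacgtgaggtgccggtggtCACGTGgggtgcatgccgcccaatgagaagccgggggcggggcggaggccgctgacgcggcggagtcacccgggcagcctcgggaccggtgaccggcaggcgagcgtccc
Coq10b: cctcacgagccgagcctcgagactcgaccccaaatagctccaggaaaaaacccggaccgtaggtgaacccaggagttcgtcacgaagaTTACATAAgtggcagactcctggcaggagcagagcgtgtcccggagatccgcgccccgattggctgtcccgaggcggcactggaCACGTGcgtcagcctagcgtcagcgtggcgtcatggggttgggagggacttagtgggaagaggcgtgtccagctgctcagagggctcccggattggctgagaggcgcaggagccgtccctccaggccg
Per3: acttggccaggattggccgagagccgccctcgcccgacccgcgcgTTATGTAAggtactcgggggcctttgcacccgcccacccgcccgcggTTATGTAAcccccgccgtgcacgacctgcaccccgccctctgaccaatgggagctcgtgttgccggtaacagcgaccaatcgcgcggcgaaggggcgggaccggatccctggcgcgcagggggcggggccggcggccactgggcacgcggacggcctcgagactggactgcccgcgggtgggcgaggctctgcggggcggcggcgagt
Arntl: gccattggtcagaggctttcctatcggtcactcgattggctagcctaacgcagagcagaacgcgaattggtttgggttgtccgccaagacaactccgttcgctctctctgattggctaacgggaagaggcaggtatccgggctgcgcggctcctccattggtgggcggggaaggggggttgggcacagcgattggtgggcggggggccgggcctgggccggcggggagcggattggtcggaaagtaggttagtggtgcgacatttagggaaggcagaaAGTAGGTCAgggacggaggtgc
Nfil3: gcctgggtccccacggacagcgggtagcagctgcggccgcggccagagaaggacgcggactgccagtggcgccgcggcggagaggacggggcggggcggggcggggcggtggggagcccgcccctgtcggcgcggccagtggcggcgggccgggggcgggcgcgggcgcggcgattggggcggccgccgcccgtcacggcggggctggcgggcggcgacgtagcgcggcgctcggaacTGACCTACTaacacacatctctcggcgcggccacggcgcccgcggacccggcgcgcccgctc
The Ciart window (chr3:95882179-95882478, minus strand) held 3 E-boxes, of which the 2 nearest began 58 and 44 bases before the start. The Cry1 window (chr10:85185005-85185304, minus strand) held 1, which began 60 bases before the start. The Coq10b window (chr1:55052520-55052819, plus strand) held an E-box 78 bases and a D-box 162 bases before the start. The Per3 window (chr4:151044616-151044915, minus strand) held 2 D-boxes, 205 and 158 bases before the start. The Arntl window (chr7:113207261-113207560, plus strand) held a REV-ERB/ROR element at base 29 after the start, and the Nfil3 window (chr13:52980990-52981289, minus strand) held one 12 bases before it. Of the 3 genes with an E-box, Ciart and Coq10b rose and Cry1 fell, both genes with a D-box rose, and both genes with a REV-ERB/ROR element fell.

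Among the activators, Arntl fell, and the remaining tested members did not pass. Arntl, whose product BMAL1 is the partner of CLOCK, had 3.00, 7.59 and 15.9 scaled TPM as lowest, median and highest level in high-score mice, against 9.75, 17.9 and 23.4 in low-score mice. Only the upper end of the high-score mice reached into the range of the low-score mice, and 16 of 20 lay below all of them. The difference was -1.09 ± 0.14 on the log2 scale (SE, limma, adjusted p = 6.20e-06), and 20 of 20 high-score mice lay below the low-score median. Clock, which encodes the partner of BMAL1, averaged 13.6 ± 2.19 scaled TPM in high-score mice and 15.4 ± 3.33 in low-score mice (SD, n = 20 each), a log2 difference of -0.15 ± 0.09 (adjusted p = 0.993, limma). Arntl2, a BMAL1 paralogue near the detection limit in muscle, differed by -0.025 ± 0.13 log2 units. Npas2, which can stand in for CLOCK, was above 1 scaled TPM in 13 of the 40 libraries, under the 14 that the test required. Its level averaged 0.467 ± 0.348 scaled TPM in high-score mice and 1.205 ± 0.555 in low-score mice. With no filter on low values Npas2 passed, with a log2 difference of -0.58 ± 0.11 (limma, adjusted p = 0.0145).

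Of 8 repressors, Per3 and Ciart rose, Cry1 fell and 5 did not pass. Per3, a member of the PERIOD family, had 4.03, 7.30 and 15.0 scaled TPM as lowest, median and highest in high-score mice, against 2.06, 4.13 and 7.34 in low-score mice. The upper 9 of the 20 high-score mice stood above every low-score mouse. The log2 difference was 0.81 ± 0.12 (SE, limma, adjusted p = 0.000103), and 19 of 20 high-score mice exceeded the low-score median. Ciart encodes CHRONO, a repressor that binds BMAL1. It had 1.22, 4.61 and 9.23 scaled TPM in high-score mice, against 0.317, 1.37 and 5.40 in low-score mice, a log2 difference of 1.03 ± 0.19 (adjusted p = 0.00596, limma). The ranges overlapped widely, with 9 of 20 high-score mice above all low-score mice and 19 of 20 above their median. Cry1, a cryptochrome repressor whose transcript peaks later in the day than those of the Per genes, had 4.22, 6.34 and 8.04 scaled TPM in high-score mice, against 5.30, 8.74 and 10.8 in low-score mice. All 20 high-score mice were below the low-score median, and the log2 difference was -0.43 ± 0.08 (adjusted p = 0.00308, limma).

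Per2, the repressor at the core of the PERIOD complex, stayed just outside the threshold. Its lowest, median and highest levels were 2.09, 4.19 and 11.03 scaled TPM in high-score mice and 0.458, 2.06 and 6.27 in low-score mice, a log2 difference of 0.77 ± 0.17 (adjusted p = 0.0660, limma). Its adjusted p ran from 0.0117 to 0.110 over the fits that left out 1 mouse, and 7 of the 40 passed. Per1, a PERIOD gene that glucocorticoids also induce, averaged 9.04 ± 3.43 scaled TPM in high-score mice and 7.38 ± 3.92 in low-score mice, with a log2 difference of 0.33 ± 0.18. Cry2 averaged 10.6 ± 2.47 and Bhlhe40 29.4 ± 9.08 scaled TPM in high-score mice, against 8.40 ± 1.85 and 26.99 ± 10.6 in low-score mice. Bhlhe40 and Bhlhe41 encode DEC repressors that compete for E-boxes, and Bhlhe41 differed by 0.10 ± 0.17 on the log2 scale. The median log2 difference over the 8 repressors was 0.32, and over all genes tested it was 0.0053.

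Of the nuclear receptors, Nr1d2 rose while Nr1d1 and Rora did not pass. Nr1d2, which encodes REV-ERB beta, had 22.6, 47.4 and 61.9 scaled TPM as lowest, median and highest in high-score mice, against 19.5, 32.6 and 42.996 in low-score mice. The lowest high-score mouse lay near the bottom of the low-score range, while 15 of 20 stood above every low-score mouse. The log2 difference was 0.51 ± 0.10 (SE, limma, adjusted p = 0.00986). Nr1d1, which encodes REV-ERB alpha and overlaps Thra on the opposite strand, averaged 19.7 ± 4.15 scaled TPM in high-score mice and 18.9 ± 7.32 in low-score mice (SD, n = 20 each). Its log2 difference in muscle was 0.11 ± 0.13 (adjusted p = 0.993, limma). Whether the counting used strand is not stated, so reads of Nr1d1 and Thra may be mixed. Rora, which encodes ROR alpha, averaged 38.8 ± 10.2 scaled TPM in high-score mice and 37.6 ± 8.27 in low-score mice, and its small difference changed sign between settings. Rorb reached 1 scaled TPM in none of the 40 libraries.

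In the D-box arm, Dbp rose more than any other gene that passed and Nfil3 fell. Dbp, a PAR bZIP activator, had 7.50, 28.4 and 58.3 scaled TPM as lowest, median and highest in high-score mice, against 3.02, 6.75 and 22.8 in low-score mice. The high-score mice stood above every low-score mouse in 17 of 20 cases. The log2 difference was 1.78 ± 0.22 (SE, limma, adjusted p = 6.20e-06). Nfil3, which encodes the repressor of the same element, had 6.52, 14.7 and 24.8 scaled TPM in high-score mice, against 12.96, 25.8 and 55.9 in low-score mice. The groups overlapped between 12.96 and 24.8, with 9 high-score mice below all low-score mice, and the log2 difference was -0.90 ± 0.16 (adjusted p = 0.00308, limma). Tef and Hlf, the PAR bZIP relatives of Dbp, did not pass. Tef averaged 114.4 ± 22.8 scaled TPM in high-score mice and 97.2 ± 25.8 in low-score mice, a log2 difference of 0.25 ± 0.12. Hlf averaged 3.97 ± 1.45 scaled TPM in high-score mice and 2.93 ± 1.14 in low-score mice.

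Ypel2 and Coq10b were the genes outside the clock lists that passed. Ypel2, a member of the small YPEL family of zinc-binding proteins, had 2.76, 4.30 and 6.43 scaled TPM as lowest, median and highest in high-score mice, against 3.50, 6.83 and 10.6 in low-score mice. All 20 high-score mice lay below the low-score median, and the log2 difference was -0.55 ± 0.09 (SE, limma, adjusted p = 0.00260). Coq10b, a mitochondrial protein that binds coenzyme Q, had 9.21, 23.9 and 50.7 scaled TPM in high-score mice, against 9.58, 14.1 and 31.6 in low-score mice. Its groups overlapped more than those of any other gene that passed, with 4 high-score mice above all low-score mice and 0 low-score mice below all high-score mice. The log2 difference was 0.69 ± 0.14 (adjusted p = 0.0255, limma). Coq10b lost its call in 6 of the 40 fits that left out a mouse (highest adjusted p 0.0550, without low-score mouse 11), while the other 8 genes passed in all 40. On TPM as deposited, without library scaling, Per3, Cry1, Ypel2 and Coq10b did not pass (adjusted p 0.0883 to 0.952, limma) and kept their direction. That setting also ranked the mice again on unscaled liver TPM, which put mouse 33 in place of low-score mouse 58. Coq10b passed in 9 of 14 alternatives.

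The clock genes were set beside their liver values as a description, since liver chose the mice. Each of the 19 tested clock genes had a log2 difference of smaller absolute size in muscle than in liver. The sign differed for Rora, at 0.023 in muscle and -0.20 in liver. The log2 difference of Dbp was 1.78 in muscle and 3.93 in liver, that of Per3 0.81 in muscle and 2.13 in liver, and that of Arntl -1.09 in muscle and -1.66 in liver. The gap was wide for Nr1d1, at 0.11 in muscle and 1.59 in liver, and for Tef, at 0.25 in muscle and 1.69 in liver. Per2 and Hlf had similar differences in both tissues, 0.77 and 0.34 in muscle against 0.90 and 0.37 in liver. Nfil3 and Cry1 were lower in high-score mice in both tissues, with -0.90 and -0.43 in muscle and -1.38 and -1.12 in liver. Ypel2 and Coq10b also had the same direction, with -0.55 and 0.69 in muscle and -0.65 and 0.90 in liver.

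**Figure D3:**
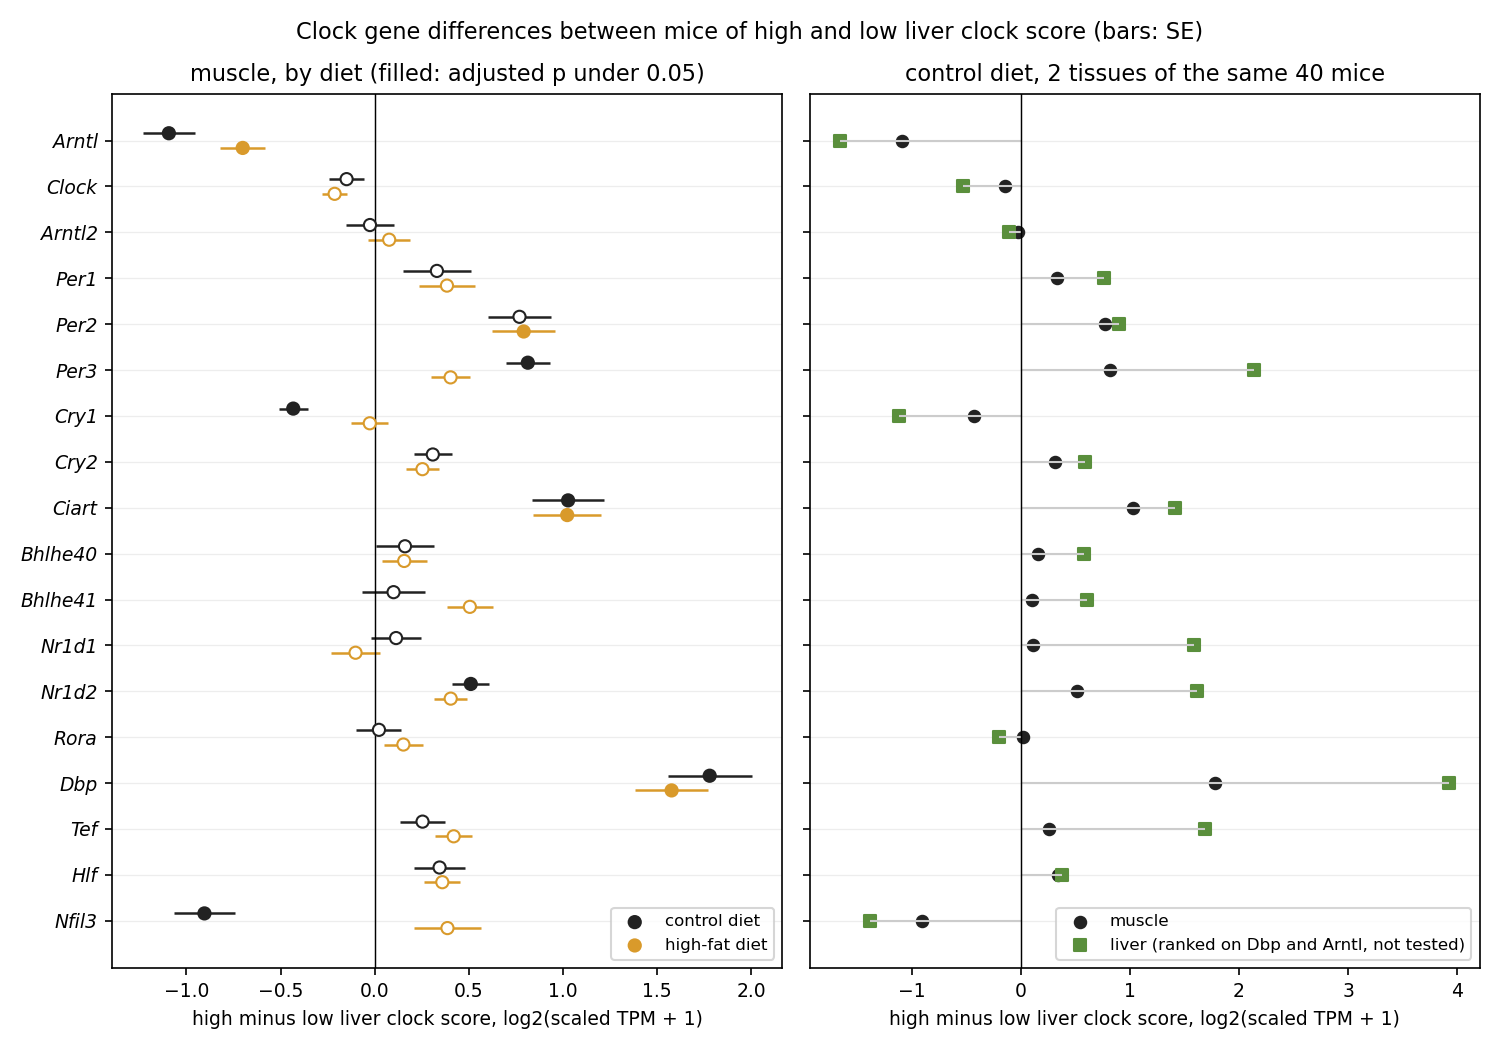
Log2 difference between high-score and low-score mice (horizontal axes, on log2(scaled TPM + 1)) for 18 of the tested clock genes. The left panel gives muscle with SE bars on the control diet (black, above) and the high-fat diet (yellow, below), filled where the adjusted p is under 0.05; the right panel sets muscle (circles) beside liver (green squares) of the same 40 control mice. Nfil3 lies at -0.90 on the control diet and at 0.39 on the high-fat diet.

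The other gene lists held nearly no gene that passed. Among the 15 tested transcripts that cycle in many tissues, Coq10b rose and 14 did not pass. Cdkn1a, a cell cycle inhibitor, averaged 5.49 ± 2.55 scaled TPM in high-score mice and 9.12 ± 3.46 in low-score mice, a log2 difference of -0.66 ± 0.16 (adjusted p = 0.106, limma). Tspan4, a tetraspanin, averaged 12.4 ± 3.54 scaled TPM in high-score mice and 8.81 ± 3.36 in low-score mice (adjusted p = 0.166, limma). The clock kinases and ubiquitin enzymes had 9 tested members and none passed, Usp2, a deubiquitinase that is rhythmic in many tissues, at a log2 difference of 0.19 ± 0.18. None of 13 tested muscle clock outputs passed, and 10 of them were below 0 on the log2 difference scale, beside 48.2% of all genes tested. Their smallest p was that of Ppp1r3c, a glycogen-targeting subunit, which averaged 331 ± 133.5 scaled TPM in high-score mice and 479 ± 176 in low-score mice (adjusted p = 0.749, limma).

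In the lists of metabolism and stress no gene passed. Of 21 genes of fatty acid oxidation and fasting, 20 had log2 differences below 0, with a median of -0.17, beside 48.2% below 0 and a median of 0.0053 over all genes tested. On the high-fat diet 7 of the 21 were below 0, with a median of 0.21, beside 45.2% below 0 and a median of 0.018 over all genes. Nuclear genes of electron transport had 11 of 12 below 0 on the control diet and 0 of 12 on the high-fat diet, and skeletal muscle markers 6 of 7 on the control diet and 0 of 7 on the high-fat diet. These differences between diets were not tested. Pdk4, a fasting-induced kinase that restrains pyruvate oxidation, averaged 226 ± 166 scaled TPM in high-score mice and 283 ± 168 in low-score mice. Cpt2 and Acadm, enzymes of mitochondrial fatty acid oxidation, differed by -0.24 ± 0.10 and -0.25 ± 0.12 on the log2 scale. None of 17 genes of glucose uptake and glycogen passed, with Slc2a1, the glucose transporter GLUT1, at -0.34 ± 0.12. None of 17 genes of atrophy and autophagy passed, with the muscle ubiquitin ligases Trim63 and Fbxo32 both at -0.31 (SE 0.19 and 0.22). None of 18 glucocorticoid-responsive genes passed, with Zbtb16, a zinc finger factor induced by glucocorticoids, at -0.30 ± 0.12. None of 15 heat shock and cold inducible genes passed, with the chaperone Hspa8 at -0.22 ± 0.16, and none of 15 immediate early genes, with Ier3 at 0.38 ± 0.13. Fatty acid synthesis (12 tested), endoplasmic reticulum and amino acid stress (17), nuclear genes of electron transport (12), interferon response (10), extracellular matrix (11), cell cycle (2) and slow (9) and fast (11) fibre genes likewise had no gene past the threshold.

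Markers of other cell types had no passing gene in this fit. All 8 macrophage markers were above 0 on the control diet (median log2 difference 0.31) and all 8 below 0 on the high-fat diet (median -0.28). Over all genes tested, 51.8% were above 0 on the control diet and 45.2% below 0 on the high-fat diet. Adipocyte markers also turned, with 8 of 10 above 0 and then 10 of 10 below (median -0.86). Extracellular matrix genes had 10 of 11 above 0 and then 12 of 12 below. Endothelial and nerve markers did not turn, with 5 of 7 and 4 of 5 below 0 on the high-fat diet. These diet differences were not tested. On the control diet the macrophage markers had a summed level of 42.1 to 236 scaled TPM in high-score mice and 33.04 to 310 in low-score mice (adjusted p = 0.369, two-sided permutation test of log2 sums, also for the next lists). All 7 endothelial markers were below 0, with sums of 110.9 to 188 scaled TPM in high-score mice and 123.6 to 231 in low-score mice, and Cdh5, an endothelial cadherin, at -0.24 ± 0.07 log2 (adjusted p = 0.587, limma). With limma's arrayWeights Cdh5 passed, at -0.31 (adjusted p = 0.0159). All 4 tested peripheral nerve markers were below 0, with sums of 15.2 to 87.4 scaled TPM in high-score mice and 5.76 to 452 in low-score mice. Nerve markers were the measure with the smallest unadjusted p (0.0435, adjusted 0.369). No marker in these lists was at 0 in every library, while the 6 lymphocyte markers all had medians under 1. The part of these cell types in the results was not tested.

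On the high-fat diet the same ranking was made in 40 other mice, so no library is shared. The ranges of the liver score were not the same. They were 1.05 to 5.49 in high-score and -3.39 to -2.21 in low-score mice of the control diet, against 2.61 to 4.93 in high-score and -3.35 to -0.052 in low-score mice of the high-fat diet. Of 13470 genes tested, 7 passed (0.052%; 1396 at an unadjusted p under 0.05). Dbp, Ciart, Per2 and Nrip1 rose (4 genes, 0.0297%) and Arntl, Ypel2 and Wsb1 fell (3 genes, 0.0223%). Nrip1, a nuclear receptor corepressor, differed by 0.27 ± 0.13 log2 units on the control diet and 0.52 ± 0.11 on the high-fat diet, and Wsb1, a subunit of a ubiquitin ligase, by -0.26 ± 0.12 and -0.55 ± 0.10. Called on both diets were 4 genes (Dbp, Ciart, Arntl and Ypel2), 44.4% of the 9 control calls and 57.1% of the 7 high-fat calls. On the control diet and the high-fat diet, Dbp differed by 1.78 ± 0.22 and 1.58 ± 0.19 on the log2 scale, Ciart by 1.03 ± 0.19 and 1.02 ± 0.18, Ypel2 by -0.55 ± 0.09 and -0.48 ± 0.08, and Arntl by -1.09 ± 0.14 and -0.70 ± 0.12. Per2 differed by 0.77 ± 0.17 on the control diet and by 0.79 ± 0.17 on the high-fat diet, where it passed (adjusted p = 0.0435, limma). That call was lost under 6 alternatives, at adjusted p of 0.0796 to 0.356. On TPM as deposited the high-fat split was 2 higher and 0 lower, in place of 4 higher and 3 lower.

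Of the 9 control calls, 8 had the same sign on the high-fat diet and 1, Nfil3, had the opposite sign. The share of same signs over all genes was not computed, so the 8 have no background beside them. Muscle Nfil3 averaged 14.3 ± 5.31 scaled TPM in high-score and 27.7 ± 10.7 in low-score mice of the control diet (SD, n = 20 each). On the high-fat diet its lowest, median and highest levels were 5.22, 21.1 and 35.9 scaled TPM in high-score mice and 5.81, 16.1 and 27.4 in low-score mice, with means of 22.2 ± 7.95 in high-score and 16.6 ± 6.03 in low-score mice. The low-score control mice had the highest mean of the 4 groups, and the ranges of all 4 overlapped. The high-fat effect was 0.39 ± 0.18 on the log2 scale and did not pass (adjusted p = 0.466, limma). With the liver score as a continuous covariate, Nfil3 changed by 0.08 log2 units per SD over all qualifying high-fat mice (adjusted p = 0.975, limma). Over all qualifying control mice that change was -0.36 ± 0.06 (adjusted p = 0.00206, limma). The difference of the score effect, control minus high-fat, was tested as an interaction over 13539 genes, and Nfil3 was the 1 gene that passed (0.00739%; 1391 at an unadjusted p under 0.05). It was -1.29 ± 0.24 on the log2 scale (adjusted p = 0.0138, limma) and passed in each of the 80 fits that left out 1 mouse, with values of -1.38 to -1.22. On TPM as deposited it was -1.36 with an adjusted p of 0.0870. The differing liver score ranges and the diet effect cannot be told apart. Cry1 differed by -0.43 ± 0.08 on the control diet and -0.03 ± 0.10 on the high-fat diet, and Per3 by 0.81 ± 0.12 and 0.40 ± 0.11. Their interactions, -0.41 ± 0.12 and 0.41 ± 0.16, did not pass (adjusted p = 0.421 and 0.450, limma).

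**Figure D4:**
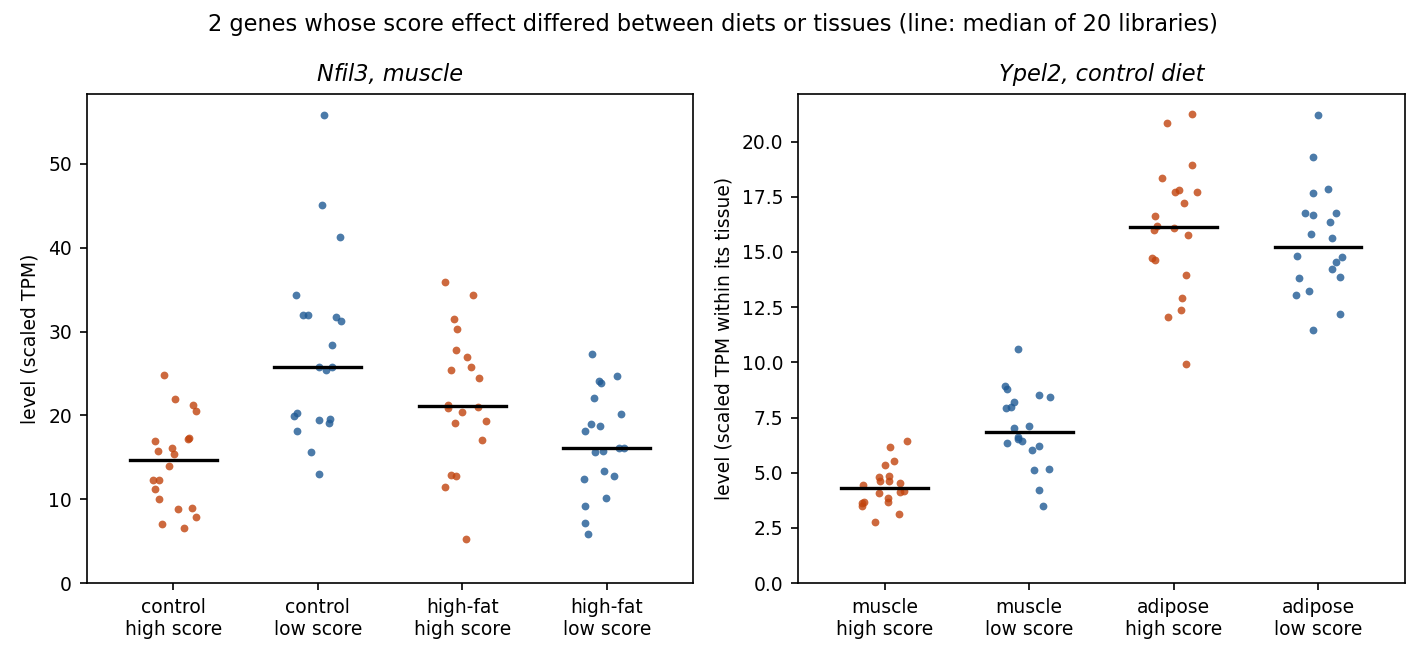
Level in scaled TPM (vertical axes, from 0) of Nfil3 in muscle on both diets (left) and of Ypel2 in muscle and adipose tissue of the control mice (right), with high-score mice in orange, low-score mice in blue, 20 libraries per group and a line at the median. Nfil3 is higher in the blue than the orange control group and Ypel2 separates by score in muscle, with medians of 4.30 and 6.83, but hardly in adipose tissue, with medians of 16.1 and 15.2.

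The adipose libraries of the same 40 mice gave a second tissue, for a table that holds 2728 genes here, 2233 of them tested. No quality minimum was set for these libraries, and 7 of them (4 of high-score and 3 of low-score mice) had a scale factor under 0.333 of the median, with ratios to the median of 0.124 to 1.08 in high-score and 0.0556 to 1.16 in low-score mice. Of the clock lists, Cry1 and Hlf were among the tested genes. Cry1 fell in adipose tissue as in muscle, with 3.20, 5.21 and 7.70 scaled TPM as lowest, median and highest in high-score mice, against 4.67, 8.26 and 15.4 in low-score mice. The log2 difference was -0.56 ± 0.11 (SE, limma, adjusted p = 0.00977), beside -0.43 ± 0.08 in muscle, and the muscle minus adipose difference of 0.13 ± 0.13 did not pass (adjusted p = 0.992, limma). Hyal2, a hyaluronidase, rose in adipose tissue by 0.39 ± 0.08 (adjusted p = 0.0179, limma), which made 2 of 2233 genes (0.0896%), 1 higher and 1 lower (0.0448% each). On TPM as deposited neither passed. Without the 7 libraries Cry1 passed at -0.65 ± 0.11 (adjusted p = 0.00456, limma) and Hyal2 did not, at 0.41 ± 0.09 (adjusted p = 0.0608). Hlf averaged 7.29 ± 3.85 scaled TPM in high-score and 7.26 ± 3.84 in low-score adipose tissue.

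Ypel2 was the 1 of 1925 genes (0.0519%) whose score effect differed between muscle and adipose tissue. In adipose tissue it had 9.91, 16.1 and 21.3 scaled TPM as lowest, median and highest in high-score mice and 11.5, 15.2 and 21.2 in low-score mice, so the ranges almost coincide. Its log2 difference there was 0.04 ± 0.08 and did not pass (adjusted p = 0.998, limma). The muscle minus adipose difference was -0.59 ± 0.12 (adjusted p = 0.0100, limma), and on TPM as deposited -0.33 (adjusted p = 0.884). Without the 7 mice with low adipose scale factors it was -0.55 ± 0.14 and did not pass (adjusted p = 0.273, limma). Muscle and adipose tables were scaled separately, so their levels are not compared.

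As a description over all 63 qualifying control mice, the genes of at least 5 scaled TPM whose muscle level followed the muscle score most closely by Spearman's rho were Dbp (0.95), Per3 (0.76), Nr1d2 (0.66), Coq10b (0.61) and Tspan4 (0.54). At the other end were Arntl (-0.88), Ypel2 (-0.82), Cry1 (-0.67) and Slc16a9 (-0.62). Dbp and Arntl make up the score and had to follow it. All values of a mouse share 1 library. After Dbp and Arntl, Ypel2 had the largest rho in size among these genes, and 5 of the 7 others named (Per3, Nr1d2, Coq10b, Ypel2 and Cry1) were among the 9 that passed between the extremes. The 40 mice of the extremes are among these 63, and the muscle score followed the liver score that split them. This overlap is therefore no independent support for the calls.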

How the data were processed

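Ranking and lists were chosen with earlier results of these data known. The deposited values are TPM: the columns made by the authors are not whole numbers and each liver and muscle column sums to 1000000 over 47643 genes. Per the submitters' processing notes, Bowtie 1.2.2 was used along with Trim Galore 0.4.4 and FastQC. The quantifier was not given in the sources used here, nor was a genome build. The adipose table holds 2728 complete genes. TPM keep no depth, so no count model was used and no counting interval can be given.

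Each library was divided by a trimmed mean (0.3 of ratios and 0.05 of levels from each end) of log ratios between it and a median library of its tissue, taken over protein-coding genes of the nucleus without Lars2; the result is called scaled TPM. Genes at 1 scaled TPM or more in 14 of the 40 libraries were tested with limma 3.58.1 (R 4.3.3; trend and robust variance) on log2(scaled TPM + 1), which understates changes of low genes. P-values were adjusted by Benjamini-Hochberg over all genes tested. Symbols came from GENCODE M21, with 99.1% of muscle IDs matched. Two-sided permutation tests used 100000 resamples (numpy 2.4.6). Named genes are the tested clock genes, all genes past the threshold at a mean of 5 scaled TPM or more, the 5 genes most and least like the muscle score, and up to 4 of each other list; some of these genes are not reported here. Npas2, Rorb, Wsb1, Nrip1 and Hyal2 were named after their values were seen. Muscle and adipose libraries of 1 mouse number come from the same animal, and the mouse was a block in an alternative. The fit was also run on simulated normal values with the means and spreads of the control muscle genes. It recovered 91% of the genes changed by 1 log2 unit and 56% of those changed by 0.5.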

Additional observations from a re-analysis of the deposited data

Results flagged for a closer look

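The muscle effect of the score on Nfil3 differed between diets: control minus high-fat was -1.29 on the log2 scale by an interaction test (limma, adjusted p = 0.0138). On TPM as deposited this difference was -1.36 and did not pass (limma, adjusted p = 0.0870). The liver score ranges also differed between the diets and cannot be told apart from a diet effect. The effect on Ypel2 differed between tissues of the same control mice: muscle minus adipose was -0.59 (limma, adjusted p = 0.0100). It did not pass without the 7 mice whose adipose libraries had low scale factors, at -0.55 (limma, adjusted p = 0.273). Nor did it pass on TPM as deposited, at -0.33 (limma, adjusted p = 0.884).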

How the results depend on the processing

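Under 14 alternatives the count of genes in control muscle was between 5 and 35, and Dbp, Arntl and Nfil3 passed under each of them. It was 5 on TPM as deposited, where the mice were also ranked again on unscaled liver TPM, and 14 with 25 mice per group. With the score as a continuous covariate over 63 mice it was 19, and with limma's arrayWeights 35. These counts stand beside 9 as reported and 8 to 18 with 1 mouse left out. The high-fat count of 7 became 2 on TPM as deposited, 4 with a stricter minimum of detected genes, 19 with the number of detected genes as covariate and 16 with arrayWeights. On TPM as deposited the adipose, diet and tissue comparisons had 0 genes by limma (35, 472 and 13 at an unadjusted p under 0.05), at all-gene median log2 differences of -0.15, -0.07 and 0.24, beside 0.10 and 0.16 in control and high-fat muscle. The diet comparison had 1 to 2 genes with 1 mouse left out, 2 of them without mouse 47. With the mouse as replicate block (pairing from the shared animal), the tissue comparison had 1 gene, again Ypel2 (adjusted p = 0.00525, limma). Without the 7 mice with low adipose scale factors the adipose comparison had 1 gene and the tissue comparison 0 by limma (75 at an unadjusted p under 0.05), with fewer samples. For the score and diet comparisons no paired analysis was possible because they set different mice against each other. Nr1d2, Cry1, Ciart and Coq10b did not pass with 15 mice per group (adjusted p 0.0933, 0.0647, 0.156 and 0.202, limma), and Ciart and Coq10b not with 25 (0.415 and 0.0525). Coq10b also did not pass with no filter (0.0632) and with the continuous score (0.0992). Per2 in high-fat muscle did not pass on TPM as deposited (0.118), with no filter (0.105), with the stricter gene minimum (0.356), without low scale factors (0.0796), without livers labelled with a second number (0.0974) and with mouse number as covariate (0.0889). Small effects that turned sign were Arntl2 (0.053 on TPM as deposited, 0.011 without unmatched mice, -0.062 to 0.025 with 1 mouse left out), Rora (-0.060 with 15 mice per group, -0.025 with 25, -0.0059 as a continuous score, -0.0046 with the stricter minimum of detected genes and without unmatched mice, -0.022 to 0.086 with 1 mouse left out), Nr1d1 and Cry1 in high-fat muscle (0.088 and 0.13 on TPM as deposited), Ypel2 in adipose tissue (-0.12 on TPM as deposited) and Hlf in adipose tissue (0.099 without low scale factors). The cause was not tested. The correlation of muscle and liver scores was 0.80 to 0.86 in all settings tried on both diets. Leaving out each mouse, dropping unmatched mice from the diet comparison and leaving out low adipose scale factors were chosen after seeing the data. Without read depth, low genes such as Npas2 and Arntl2 cannot be given a counting error.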

Other observations

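With the liver score as a continuous covariate over all 63 qualifying control mice, 19 genes passed in muscle (limma, adjusted p under 0.05). Of these, 8 were among the 9 that passed between the extremes, Coq10b being the one that did not pass (adjusted p = 0.0992, limma). The 40 mice of the extremes are among these 63, so this overlap is no independent support. Of the remaining 11 genes, 10 are given here, named after their values were seen. Per2 rose by 0.35 ± 0.07 log2 units per SD of the score (SE, adjusted p = 0.00392), Tspan4 by 0.23 ± 0.04 (0.00248), Lrrn4cl by 0.27 ± 0.06 (0.0207) and Stk35, a kinase, by 0.12 ± 0.03 (0.0429). Slc16a9, a monocarboxylate transporter family member, fell by 0.23 ± 0.04 (0.00392) and Sh3bp5 by 0.26 ± 0.05 (0.00857). Sfrp5, a secreted Wnt antagonist, fell by 0.39 ± 0.08 (0.0119), Cdkn1a by 0.30 ± 0.07 (0.0195), Tead4, a TEA domain transcription factor, by 0.26 ± 0.06 (0.0302) and Irf2bp2, a transcriptional corepressor, by 0.12 ± 0.03 (0.0402). Over the 60 qualifying high-fat mice, Per2 passed in the same fit at 0.37 (0.00181, limma), and the other 9 given here had the same sign and did not pass. Those 9 lay between -0.16 (Slc16a9) and 0.12 (Tspan4) log2 units per SD, with Sh3bp5 the smallest in size at -0.06. The share of same signs over all genes was not computed for this fit, so the 9 have no background beside them. Whether these 9 differ between diets was not tested in the continuous fit.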
